A study of Mus musculus with 14 samples.

Results

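The mSCC-38 line is a mouse cell line derived from a squamous cell carcinoma of the skin that had been raised chemically with DMBA, a mutagen, followed by the tumour promoter TPA. The untransfected cells described here make up 4 of the 14 samples of the study (NT1 to NT4) and were chosen by their label alone. The other 10 samples were harvested 72 h after transfection of the same line with a control siRNA (SiC, 3 samples) or with either of 2 siRNAs against a mouse transcript (Si1AK, 4 samples, and Si2AK, 3 samples), and they are used below only to count in how many of them a gene was also detected. All cells were grown in dishes in DMEM with serum, and 0.2 µg of total RNA with an integrity number of 9 was taken from each sample for Cy3 labelling and hybridised to 1-colour Agilent arrays. The labels do not say whether the 4 untransfected samples came from separate cultures, so the spread between them may be technical. A single line was used, and its strain, sex, passage and clonal origin are not given in the sources used here. NT1 and NT2 were on 1 slide and NT3 and NT4 on a second.

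The stratified epidermis has a basal layer of dividing keratinocytes that sit on laminin through hemidesmosomes and make keratin 5 with keratin 14 under the transcription factor p63. Cells that leave this layer change to keratins 1 and 10 and then build the cornified envelope, whereas keratins 6, 16 and 17 belong to wounded and hyperproliferative epidermis and keratins 8 and 18 to simple epithelia. Squamous carcinomas keep part of this programme and can lose E-cadherin, the main adhesion molecule between epithelial cells, while gaining genes of mesenchymal cells. Tumours of the DMBA and TPA model commonly carry an activating mutation of Hras, which an expression array does not read.

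Levels are given as the log2 of the background-corrected signal of a probe minus the log2 of the 75th percentile of all probes on that array, so that a gene at 0 was as bright as that percentile and a gene at 1 had double its signal. Each ± is the SD over the 4 arrays. A gene was called detected on an array when the scanner software marked its spot as well above background, and a gene with several probes was read from the probe with the highest mean. The brightness of a probe depends on its sequence as well as on the RNA, so a percentile below says where a gene's probe signal lay among those of all protein-coding genes and not how many transcripts there were. In a bulk sample, fewer cells with a transcript and less of it per cell cannot be told apart. A single group of samples has no difference to test, and the counts below are descriptions.

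Of 20185 protein-coding genes, 12537 (62.1%) were detected on all 4 arrays, 3014 (14.9%) on 1 to 3 of them and 4634 (23.0%) on none. The share of spots well above background was between 52.65% and 58.5% on the 4 arrays, and none of the negative-control spots was. The scaled negative-control median was highest on NT1 at -6.45 and lowest on NT3 at -7.47. Detection on part of the arrays followed the array: of the 1710 genes found on a single array, 800 were found on NT1, 508 on NT3, 206 on NT2 and 196 on NT4. All 25 housekeeping genes were detected on all 4 arrays, with a median level of 8.00. Of 41 genes of unrelated tissues, such as liver, retina and muscle, 10 (24.4%) were detected on all 4 arrays and 16 (39.0%) on none. The brightest of these 10 were Mbp, a myelin protein, at 3.02 ± 0.07 and Tnnt2, cardiac troponin T, at 3.0 ± 0.09, so detection of a probe alone does not show that the cells have the function its gene is known for.

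**Figure D1:**
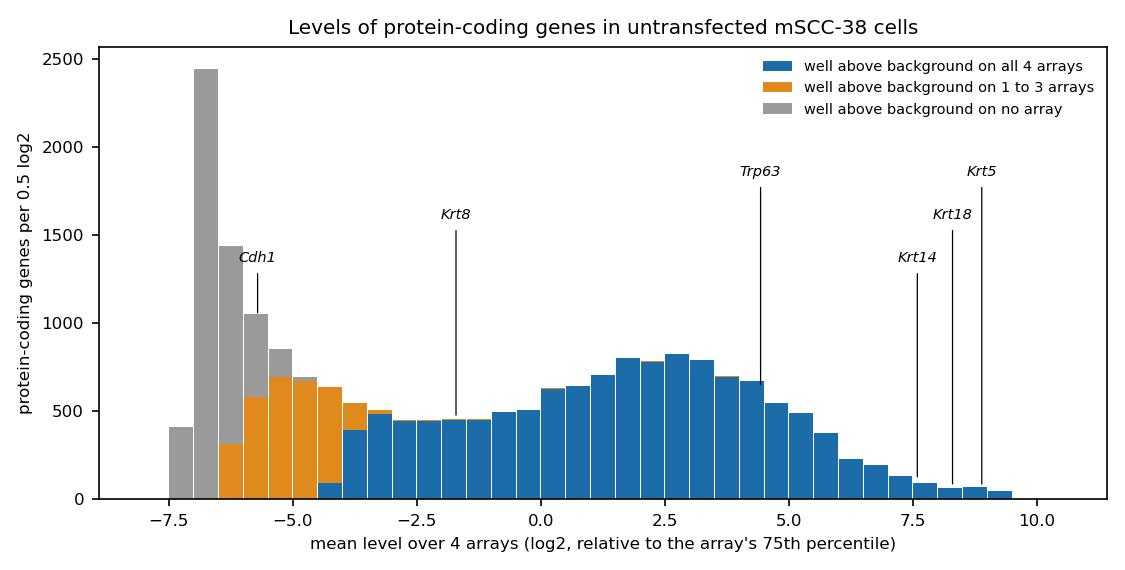
Histogram of the mean level of 20185 protein-coding genes over the 4 untransfected arrays (horizontal axis, log2 relative to each array's 75th percentile) against the number of genes per 0.5 log2 (vertical axis), stacked and coloured by the number of arrays on which the gene was well above background. Lines mark the 6 epithelial identity markers: Cdh1 at -5.71 lies in the grey mode of genes on no array, and Krt14, Krt18 and Krt5 lie at the bright end at 7.59, 8.30 and 8.89.

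The 6 genes that mark epithelial identity split sharply. Krt5, Krt14, Krt18 and Trp63 were bright, Krt8 was dim, and Cdh1 was not well above background on any array. The following probes of 60 bases are shown because the Krt14 level rests on the only probe of its gene and the other 3 are second probes by which a level can be checked. Each has a reading frame without a stop across its length, and they are written 5′ to 3′ in lower case from the array files. The Krt5 probe maps to chr15:101542056-101542115, the Krt8 probe to chr15:101828827-101828886 (both minus strand), and the Trp63 probe to chr16:25871159-25871218 (plus strand) of mm9. The Krt14 probe spans chr11:100064683-100065288 (minus strand) of the same build, 606 bases of genome for 60 of probe, and so joins separate exons.
Krt5: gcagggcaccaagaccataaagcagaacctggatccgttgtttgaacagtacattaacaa
Krt14: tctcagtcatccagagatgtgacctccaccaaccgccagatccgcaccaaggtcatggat
Krt8: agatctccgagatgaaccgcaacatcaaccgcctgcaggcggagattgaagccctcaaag
Trp63: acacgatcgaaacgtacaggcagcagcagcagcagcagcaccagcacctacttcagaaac

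Krt5, the basal type II keratin, read 8.74, 9.02, 8.85 and 8.94 on NT1 to NT4 (8.89 ± 0.12), above 99.7% of protein-coding genes. Its other probe, printed above, read 4.43, 4.52, 4.02 and 3.14 (4.03 ± 0.63), so that the probes of this gene were detected everywhere but differed widely in brightness. Krt14, the type I partner of Krt5, read 7.40, 7.62, 7.66 and 7.70 (7.59 ± 0.14) on its only probe. Trp63, which encodes p63, read 4.53, 4.45, 4.41 and 4.34 (4.43 ± 0.08) on the brightest of 4 probes. The other 3 Trp63 probes were also detected on all 4 arrays, at 2.41 ± 0.07, -0.02 ± 0.27 and -3.02 ± 0.27. The 4 arrays lay within 1 log2 of each other for each of these 3 genes, apart from the dimmer Krt5 probe.

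Krt18, a type I keratin of simple epithelia, read 8.19, 8.5, 8.29 and 8.23 (8.30 ± 0.14), above 99.3% of genes. Krt8, its usual type II partner, read -1.59, -1.52, -1.96 and -1.79 (-1.71 ± 0.20), near the middle of the ranking at 48.3%, and -3.42 ± 0.39 on its second probe. Both Krt8 probes were thus dim while the single Krt18 probe was among the brightest of the arrays. Cdh1, which encodes E-cadherin, read -4.65, -5.71, -6.30 and -6.17 (-5.71 ± 0.75), the highest value being that of NT1, the array with the highest negative controls. Its single probe, at chr8:109193812-109193871 of mm9, was not well above background on any untransfected array, nor on any of the 8 transfected arrays with a usual share of detected spots. It was marked on the other 2, where 84.88% and 90.52% of all spots were. Of the 6 markers of epithelial identity, 5 were thus detected on every array, and Cdh1, read from a single probe, was the exception.

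Keratins were ordered by the compartment they are known for, and bright ones were not confined to basal and stress keratins. Krt18 (8.30) of simple epithelia, Krt85 (4.64) of hair and Krt13 (3.70) of internal epithelia were among them. All 3 basal keratins were detected on all 4 arrays, including Krt15 at 1.67 ± 0.25. All 4 keratins of wounded and hyperproliferative epidermis were as well, beside 62.1% of all protein-coding genes. Krt17 read 6.06 ± 0.13, Krt16 3.51 ± 0.11 and Krt6b 3.47 ± 0.39. Krt6a read 3.0 on NT1 and 4.88, 4.57 and 4.63 on the others (4.27 ± 0.86), so NT1 stood apart. Krt6a and Krt6b are near-identical copies, and reading of one by the probe of the other was not tested.

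Of the 9 suprabasal and terminal epidermal keratins, 5 were detected on all 4 arrays and Krt1 and Krt77 on none. Krt10, the type I keratin of the spinous layer, read 0.10, 0.17, -0.01 and -0.22 (0.01 ± 0.17), while Krt1, its type II partner, read -6.32, -6.60, -7.38 and -7.01 (-6.83 ± 0.46). Krt1 thus lay at the level of the negative controls on every array. Krt23 read -0.73 ± 0.35, Krt79 -1.98 ± 0.47, Krt80 -2.32 ± 0.36 and Krt2 -2.43 ± 0.46, and Krt78 and Krt9 were detected on 3 and 2 arrays. Among 4 keratins of internal stratified epithelia, Krt13 (3.70 ± 0.32) and Krt76 (-0.80 ± 0.14) were detected on all 4 arrays, Krt4 on 1 and Krt84 on none, a count of none that was 2 without NT1. Besides Krt8 and Krt18, the simple keratins were near the limit: Krt7 was detected on NT1, NT2 and NT3, and Krt19 and Krt20 on NT1 alone. Without NT1, 2 of these 5 simple keratins were on no array.

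Of 20 hair follicle and nail keratins measured, 8 (40.0%) were on all 4 arrays and 4 (Krt32, Krt34, Krt33b and Krt25) on none. Krt85 was the brightest, at 4.69, 4.68, 4.71 and 4.47 (4.64 ± 0.11), followed by Krt81 (1.30 ± 0.39), Krt73 (0.57 ± 0.12), Krt27 (-1.39 ± 0.34) and Krt31 (-2.83 ± 0.14). Krt85 is a cuticle and cortex keratin of hair, and its probe lay above 89.7% of genes. Counted by symbol among genes classed as protein-coding, 27 of 52 keratins (51.9%) were on all 4 arrays and 10 were on none. That share lay below the 62.1% of all protein-coding genes. The class did not hold Krt85, which is therefore not in this count.

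**Figure D2:**
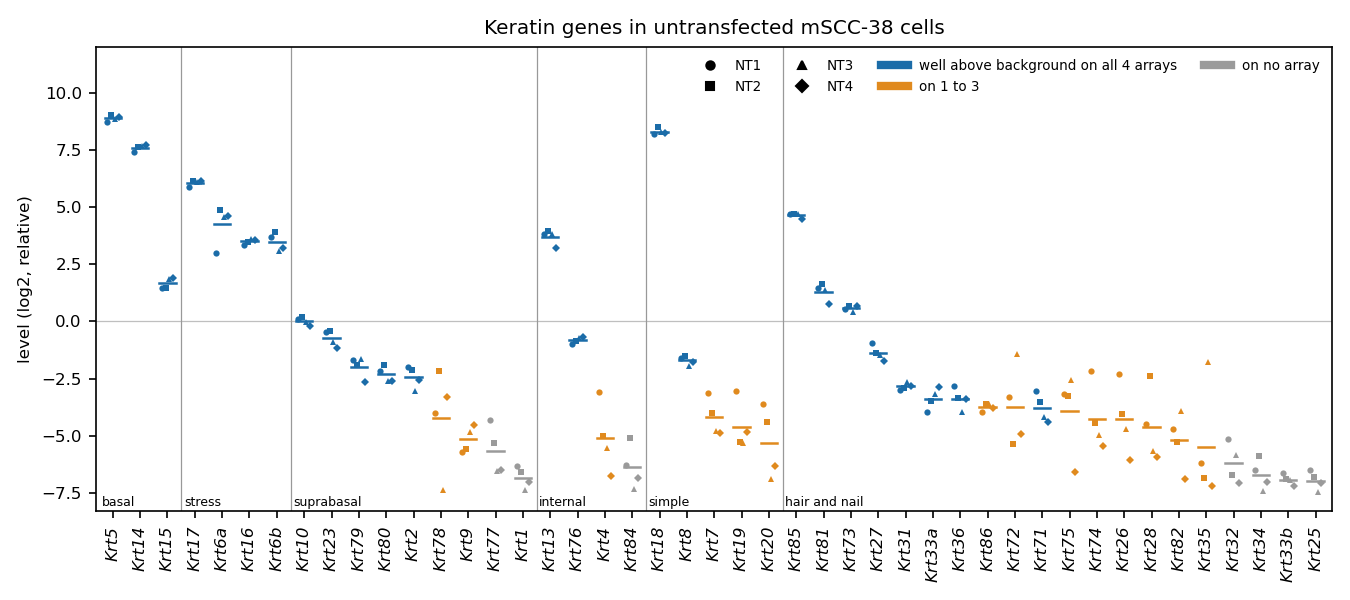
Level of each listed keratin (vertical axis, log2 relative to each array's 75th percentile) on the 4 untransfected arrays, with a bar at the mean, ordered by mean within compartments and coloured by the number of arrays on which it was well above background. Basal and stress keratins all lie above 1, whereas Krt1 at -6.83 lies at the lower edge and the hair and nail keratins run from 4.64 to -6.96, with Krt18 (8.30) and Krt85 (4.64) apart from their groups.

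Transcription factors of the epidermal lineage were mostly present. Of 36 listed, 28 (77.8%) were detected on all 4 arrays, beside 62.1% of all protein-coding genes, although their median level, -0.11, was only slightly above the median of -1.33 over all protein-coding genes. Pitx1, a homeodomain factor known from squamous carcinoma cells, read 6.81, 6.85, 6.76 and 6.84 (6.82 ± 0.04), above 97.7% of genes and with little spread. Cebpb (5.15 ± 0.20), a differentiation factor, Klf4 (4.36 ± 0.11), needed for the skin barrier, and Klf5 (4.0 ± 0.26), a factor of basal cells, followed. Tfap2c (3.11 ± 0.26), Tfap2a (2.99 ± 0.28), Sox9 (2.79 ± 0.23) and Gata3 (1.78 ± 0.07) were detected throughout.

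Factors that maintain the epithelial state were present at lower signal. Ovol2, a repressor of mesenchymal genes, read 2.69 ± 0.08 and the splicing regulator Esrp2 0.74 ± 0.07. Grhl2 (-2.53 ± 0.42), an activator of epithelial junction genes, Ovol1 (-2.35 ± 0.28) and Esrp1 (-3.20 ± 0.46) were dim but detected on all 4 arrays. The epithelial Ets factors were at or under the limit: Elf3 was detected on NT2 alone, Elf5 on NT1 alone and Ehf on none. Foxn1 was detected on NT1 and NT3. Prdm1, Hoxc13, Tcf7l1 and Sox2 were on no array, Sox2 reading -6.59, -6.87, -7.54 and -7.12 (-7.03 ± 0.40).

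Mesenchymal genes were also present in the same RNA. Of 27 genes listed for their role in or after epithelial-mesenchymal transition, 24 (88.9%) were on all 4 arrays, beside 62.1% of all protein-coding genes, Postn alone was on none (2 of the 27 without NT2), and the median level was 2.55. Vim, the intermediate filament of mesenchymal cells, read 8.18, 8.46, 8.14 and 8.34 (8.28 ± 0.14), above 99.3% of genes. Lgals1 (9.10 ± 0.16), a galectin, S100a4 (8.87 ± 0.15), a calcium-binding protein of motile cells, Sparc (8.56 ± 0.19), a matrix protein, and Tgfbi (6.57 ± 0.13), induced by TGF-beta, were of the same order. Each of these 5 genes was bright on every array, with no array standing apart.

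The transcription factors that repress Cdh1 in other systems were detected on all 4 arrays. Snai2 read 4.06, 4.16, 4.22 and 4.08 (4.13 ± 0.07), Twist2 3.87 ± 0.08, Zeb1 2.05, 1.77, 2.04 and 2.10 (1.99 ± 0.15), Twist1 1.41 ± 0.24, Zeb2 1.13 ± 0.10 and Snai1 -1.85 ± 0.20. Prrx1, a mesenchymal homeodomain factor, read 3.26 ± 0.03 and Cdh2, which encodes N-cadherin, 2.55 ± 0.22. The fibrillar collagens of fibroblasts were lower in the ranking: Col1a1 read -2.14 ± 0.41, Col1a2 -3.76 ± 0.51, and Col3a1 was detected on 3 arrays at -4.48 ± 0.49. Thy1 was detected on NT2 alone, where it read -1.91 against -5.22 or less on the others.

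Markers used to isolate stem cells of skin and its tumours were in part very bright. Of 15, 11 (73.3%) were on all 4 arrays, beside 62.1% of all protein-coding genes. Itga6, the integrin used to sort basal cells, read 7.69, 7.86, 7.56 and 7.92 (7.76 ± 0.16) on the brighter of its 2 probes and 1.90 ± 0.10 on the other. Cd34, a marker of the hair follicle bulge and of tumour-propagating cells, read 7.33, 7.37, 7.34 and 7.48 (7.38 ± 0.07) on the brighter of 2 probes. Its other probe read 1.45 ± 0.28. Both probes of Itga6 and of Cd34 were detected on all 4 arrays, so how bright these genes are rests on 1 probe each. Ly6a read 6.83 ± 0.13 and Itgb4 6.72 ± 0.09. The hair follicle stem cell gene Lgr5 (-6.73 ± 0.68) was on no array, like Sox2, and Cd200 (-4.50 ± 0.31) and Aldh1a3 (-4.93 ± 0.85) were on 1 and 2 arrays.

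Of 44 genes of the cornified envelope and terminal differentiation, 25 (56.8%) were on all 4 arrays and 8 (18.2%) on none. The shares of all protein-coding genes were 62.1% and 23.0%. Their median level, -3.02, was below the median of -1.33 over all protein-coding genes. The brightest were secreted or early genes: Dmkn (5.76 ± 0.14), Sbsn (4.85 ± 0.07) and Krtdap (4.36 ± 0.15), followed by the late envelope gene Lce1g (3.68 ± 0.09) and envoplakin, Evpl (2.85 ± 0.18). Ivl, encoding involucrin, read 0.58 ± 0.15. Lor, encoding loricrin, the main envelope protein, was on no array at -6.13 ± 0.33, together with Calml3, Klk7, Dsg1a, Rptn, Dsc1, Tchhl1 and Sprr3. Flg, the filaggrin gene, was detected on 2 arrays at -3.38, -4.50, -6.55 and -5.53 (-4.99 ± 1.36), the highest again on NT1. Probes of the Lce1, Lce3 and Sprr2 copies may read each other, which was not tested.

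Among genes of cell-to-cell adhesion, Cdh1, most desmosomal cadherins and most claudins were not detected or were detected on part of the arrays, whereas several catenins and desmosomal plaque genes were bright. Of 18 cadherins and catenins, 10 (55.6%) were on all 4 arrays, beside 62.1% of all protein-coding genes, and 4 on none (Cdh1, Cdh4, Cdh16 and Ctnna2). The catenins that link cadherins to actin were bright: Ctnna1 read 6.93, 6.96, 6.95 and 7.02 (6.96 ± 0.04) and Ctnnb1 5.09 ± 0.10. Ctnnd1, p120-catenin, read 5.31, 5.24 and 5.22 on NT1, NT2 and NT4 and 3.57 on NT3 (4.83 ± 0.85). The cadherins on all 4 arrays were Cdh13 (3.57 ± 0.13), a lipid-anchored form, Cdh3 (3.07 ± 0.14), the P-cadherin of basal cells, Cdh2, and, at low signal, Cdh11 (-2.14 ± 0.10), Cdh5 (-2.90 ± 0.32) and Cdh15 (-2.95 ± 0.18). P-cadherin read 3.07, 3.05, 2.92 and 3.26, so it was clearly above background on every array on which E-cadherin was not. Cdh6 was detected on 3 arrays, and Ctnnd2, Cdh17 and Ctnna3 on 1 each.

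Desmosome genes followed a like division, with 8 of 16 (50%) on all 4 arrays, beside 62.1% of all protein-coding genes, and 5 on none. Perp, a p63 target needed for desmosomes, read 8.04, 8.21, 8.09 and 8.08 (8.11 ± 0.07). The plaque genes Pkp1 (6.52 ± 0.07), Dsp (4.87 ± 0.21) and Pkp3 (4.44 ± 0.16) were bright, and plakoglobin, Jup, read -0.66 ± 0.09. Of the 9 desmosomal cadherins in the list, Dsc3 alone was on all 4 arrays (-1.14 ± 0.17). Dsg3 was detected on 3 arrays (-3.81, -5.10, -4.99 and -3.51 on NT1 to NT4), Dsg2 on 2 and Dsc2 on 1, and Dsg4, Dsg1a, Dsg1b, Dsg1c and Dsc1 on none.

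Tight junction genes had the lowest share of the adhesion lists, 10 of 23 (43.5%) on all 4 arrays and 8 (34.8%) on none, beside 62.1% and 23.0% of all protein-coding genes. The receptor F11r (4.70 ± 0.07), Cldn12 (3.47 ± 0.05) and the scaffold Tjp1 (3.43 ± 0.13) were present, and cingulin, Cgn, read 0.73 ± 0.19. Dim but also on all 4 arrays were Cldn7 (-2.65 ± 0.09), Cldn23 (-3.47 ± 0.18), Cldn9 (-3.57 ± 0.24) and Cldn15 (-3.59 ± 0.60). Ocln, encoding occludin, read -6.36, -5.23, -6.23 and -6.00 (-5.96 ± 0.50), and Cldn1, the main claudin of the epidermal barrier, -7.01 ± 0.44. Both were on no array, as were Cldn2, Cldn3, Cldn5, Cldn6, Cldn18 and Marveld2. Cldn4, Cldn8, Cldn10 and Cldn11 were detected on 1 array each and Marveld3 on 2. Epcam, another epithelial adhesion molecule, was dim but detected on all 4 arrays (-2.19, -3.47, -3.67 and -3.49). Of 18 other adhesion molecules, 17 (94.4%) were on all 4 arrays, led by Cd9 (6.96 ± 0.02), Nectin1 (5.34 ± 0.35) and Cd44 (4.96 ± 0.10). Nectin4 was the exception, on NT3 alone, and was on none without it. The remaining Cd44 probes read 4.87 ± 0.09, -1.34 ± 0.20 and -1.82 ± 0.09.

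Genes of attachment to the basement membrane were mostly detected. Of 22 genes of hemidesmosomes and laminins, 18 (81.8%) were on all 4 arrays, beside 62.1% of all protein-coding genes. Nid1 and Lama4 were on none (4 of the 22 without NT2), and the median level of the 22 was 3.48. Both chains of the hemidesmosome integrin (Itgb4, and Itga6 on 1 of its 2 probes, above) were bright, as were plectin, Plec (6.72 ± 0.19), and collagen XVII, Col17a1 (5.28 ± 0.07). Of laminin-332, the ligand of this integrin, Lamb3 read 5.04, 4.91, 4.77 and 4.72 (4.86 ± 0.14) and Lama3 3.04 ± 0.16. Among 26 integrin subunits, 15 (57.7%) were on all 4 arrays, near the 62.1% of all protein-coding genes. Itgb7, known from lymphocytes, read 6.74, 6.66, 6.97 and 7.17 (6.88 ± 0.23), and Itgb1 (4.63 ± 0.10) and Itga3 (4.45 ± 0.16), a laminin receptor, followed. Itga1, Itgae, Itgb6 and Itga8 were on none, a count that was 7 without NT1.

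**Figure D3:**
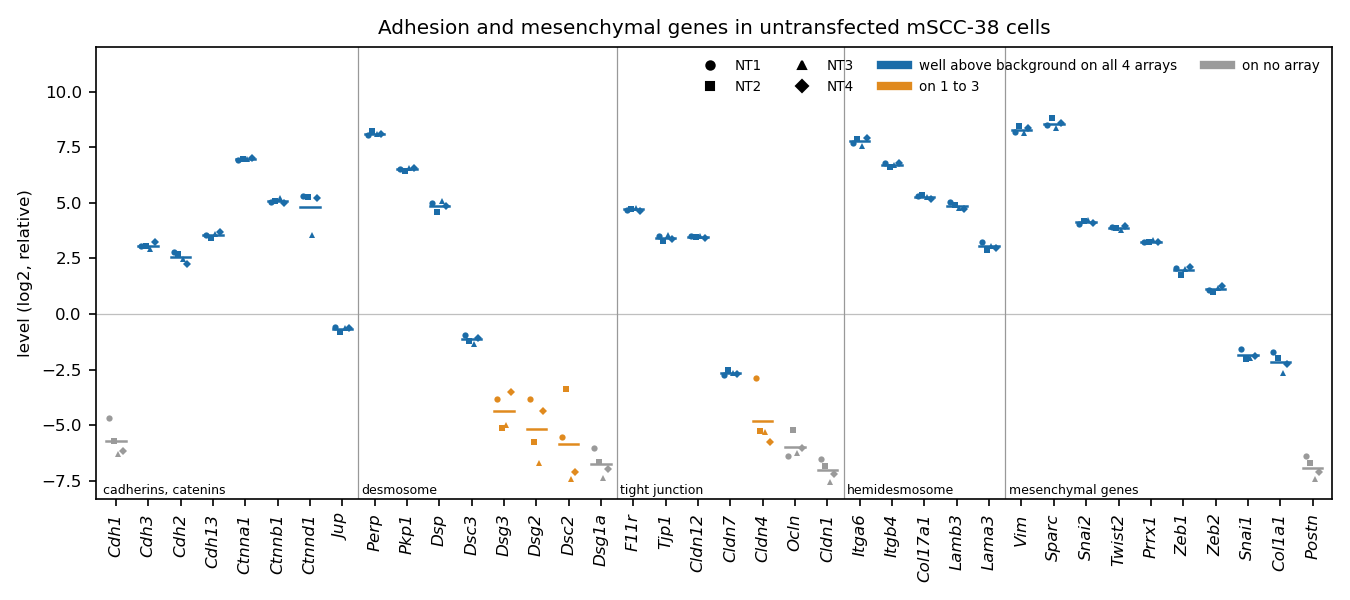
Level of adhesion and mesenchymal genes (vertical axis, log2 relative to each array's 75th percentile) on the 4 untransfected arrays, with a bar at the mean and colours as for the keratins. Cdh1, Ocln, Cldn1 and Dsg1a lie between -5.71 and -7.01 on average and were on no array, while Ctnna1, Ctnnb1, Pkp1, Dsp, Lamb3, Lama3 and Vim lie above 3.

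Egfr, the main mitogenic receptor of keratinocytes, read 2.92, 2.69, 2.98 and 2.82 (2.85 ± 0.13) on its brightest probe, and -0.76 ± 0.18 and -0.84 ± 0.10 on the other 2, all detected on all 4 arrays. Erbb2, its co-receptor, read 1.67 ± 0.13. Erbb3 was detected on NT1 and NT3 (-3.73, -5.10, -5.14 and -5.26), and Erbb4 on none (-6.92 ± 0.46). Of 11 EGF family ligands, 8 (72.7%) were on all 4 arrays, beside 62.1% of all protein-coding genes. Nrg3 was on none (2 of the 11 without NT3). Nrg1, a ligand of Erbb3 and Erbb4, read 5.64, 5.62, 5.64 and 5.67 (5.64 ± 0.02), the brightest ligand probe. The Egfr ligands Epgn (4.37 ± 0.13), Hbegf (3.16 ± 0.53), Areg (2.58 ± 0.42) and Ereg (2.46 ± 0.04) were present, Tgfa read 0.01 ± 0.17 and Btc -1.90 ± 0.20, and Egf and Nrg4 were on 3 and 1 arrays. Probes of Egfr and of several of its own ligands were thus detected in the same bulk RNA, and signalling between them was not tested.

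Among FGF receptors, 4 of 5 were on all 4 arrays, beside 62.1% of all protein-coding genes, and Fgfr4 on 3. Fgfr1 read 4.84, 4.75, 5.01 and 5.38 (4.99 ± 0.28), whereas Fgfr2 (-1.61 ± 0.13), the receptor typical of keratinocytes, and Fgfr3 (-2.44 ± 0.26) were dim. Of 46 other receptor tyrosine kinases, 26 (56.5%) were on all 4 arrays and 11 on none, near the shares of all genes. Axl, a receptor of mesenchymal-type carcinoma cells, read 6.29, 6.16, 6.42 and 6.54 (6.35 ± 0.16) and led the list, followed by the ephrin receptors Ephb3 (5.94 ± 0.11), Epha2 (5.40 ± 0.31), Epha5 (4.63 ± 0.09) and Ephb6 (3.96 ± 0.25). Igf1r read 2.84 ± 0.22 and Met, the hepatocyte growth factor receptor, 1.01 ± 0.36. On no array were Epha3, Epha6, Epha7, Epha8, Ephb1, Flt4, Musk, Ret, Ror2, Ros1 and Tek.

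Receptors of the TGF-beta and BMP family were on all 4 arrays for 12 of 14 genes (85.7%), beside 62.1% of all protein-coding genes. Tgfbr2 read 5.37, 5.18, 5.46 and 5.35 (5.34 ± 0.12), Acvr1 4.21 ± 0.12, Tgfbr3 2.84 ± 0.28, Bmpr1a 2.27 ± 0.20 and Tgfbr1 1.71 ± 0.50, and Bmpr1b was on none (2 of the 14 without NT4). Of 15 Wnt and Hedgehog receptors, 13 (86.7%, beside the same 62.1%) were on all 4 and Fzd10 on none (2 of the 15 without NT4). Smo, the signal transducer of the Hedgehog pathway, read 6.25, 6.34, 6.18 and 6.25 (6.26 ± 0.06), while Ptch1 was dim at -2.22 ± 0.54. All 9 Notch receptors and ligands were on all 4 arrays, again beside 62.1%. They ran from Jag2 (3.32 ± 0.05), Dll1 (2.25 ± 0.20), Jag1 (2.12 ± 0.08) and Notch2 (1.81 ± 0.14) down to Notch1 (-1.34 ± 0.28), a suppressor of skin tumours in mice, and Dll4 (-3.86 ± 0.75).

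Tumour suppressor genes were nearly all present, with 3 exceptions. Of 50 listed, 47 (94.0%) were on all 4 arrays, beside 62.1% of all protein-coding genes, at a median level of 1.45. Fat1 (5.32 ± 0.24), a giant cadherin, Dcc (4.98 ± 0.44), Rassf1 (4.76 ± 0.03), Ptpn13 (4.32 ± 0.13) and Smad4 (4.25 ± 0.09) led. Cdkn1a, encoding p21, read 4.15 ± 0.13, Rb1 1.86 ± 0.37, and Trp53, encoding p53, 0.74, 0.66, 0.93 and 1.12 (0.86 ± 0.21). The exceptions were Cdkn2a and Cdkn2b, neighbouring genes of the same locus that encode the inhibitors p16 and p15 of the cyclin D kinases and, from Cdkn2a, p19Arf, and Cdkn1c.

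Cdkn2a read -4.72, -6.73, -4.90 and -6.67 (-5.75 ± 1.09) on its brighter probe, at chr4:88920405-88920464 of mm9, which was well above background on NT3 alone, and -6.90 ± 0.44 on its second probe, on no array. Cdkn2b read -4.75, -6.31, -7.38 and -6.85 (-6.32 ± 1.14), with its second probe at -6.99 ± 0.43, and neither was well above background on any array. Of the 4 probes of the pair, the brighter Cdkn2a probe alone was thus well above background, and on 1 array. Of the 8 transfected arrays with a usual share of detected spots the Cdkn2a probe was detected on none and the Cdkn2b probe on 2. Cdkn1c, encoding p57, was on no array at -6.03 ± 1.47.

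Of 30 Ras pathway genes, 26 (86.7%) were on all 4 arrays, beside 62.1% of all protein-coding genes, and Rasal1 and Rasgrp3 were on none. Hras read 5.23, 5.43, 5.30 and 5.49 (5.36 ± 0.12) on 1 of its 3 probes, at chr7:148377296-148377355 of mm9. The other Hras probes read -2.32 ± 0.16, detected on all 4 arrays, and -5.73 ± 0.87, detected on none. Nras read 3.15 ± 0.10, and the array does not tell a mutant from a normal allele. Rasa3 (5.85 ± 0.10), a Ras GTPase activator, and Map2k2 (4.72 ± 0.07), a kinase of the cascade, were steady across arrays. Rasgrp1 and Rasgrp2 were detected on 3 arrays each.

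Of 38 other oncogenes and cell cycle genes, 35 (92.1%) were on all 4 arrays, beside 62.1% of all protein-coding genes. Mycl, Pik3cg and Ccne2 were on none. Birc5, the mitotic gene survivin, read 7.37, 7.54, 7.30 and 7.39 (7.40 ± 0.10), Cdk4 7.04 ± 0.08, Akt1 6.77 ± 0.09, Ccnd1, encoding cyclin D1, 6.48, 6.57, 6.59 and 6.47 (6.53 ± 0.06), and Nfe2l2, encoding Nrf2, 6.33 ± 0.13. Myc read 3.35 ± 0.05. Of the kinases that p16 and p15 inhibit, Cdk4 was bright, while Cdk6 was dim at -1.96 ± 0.26 though detected on all 4 arrays.

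**Figure D4:**
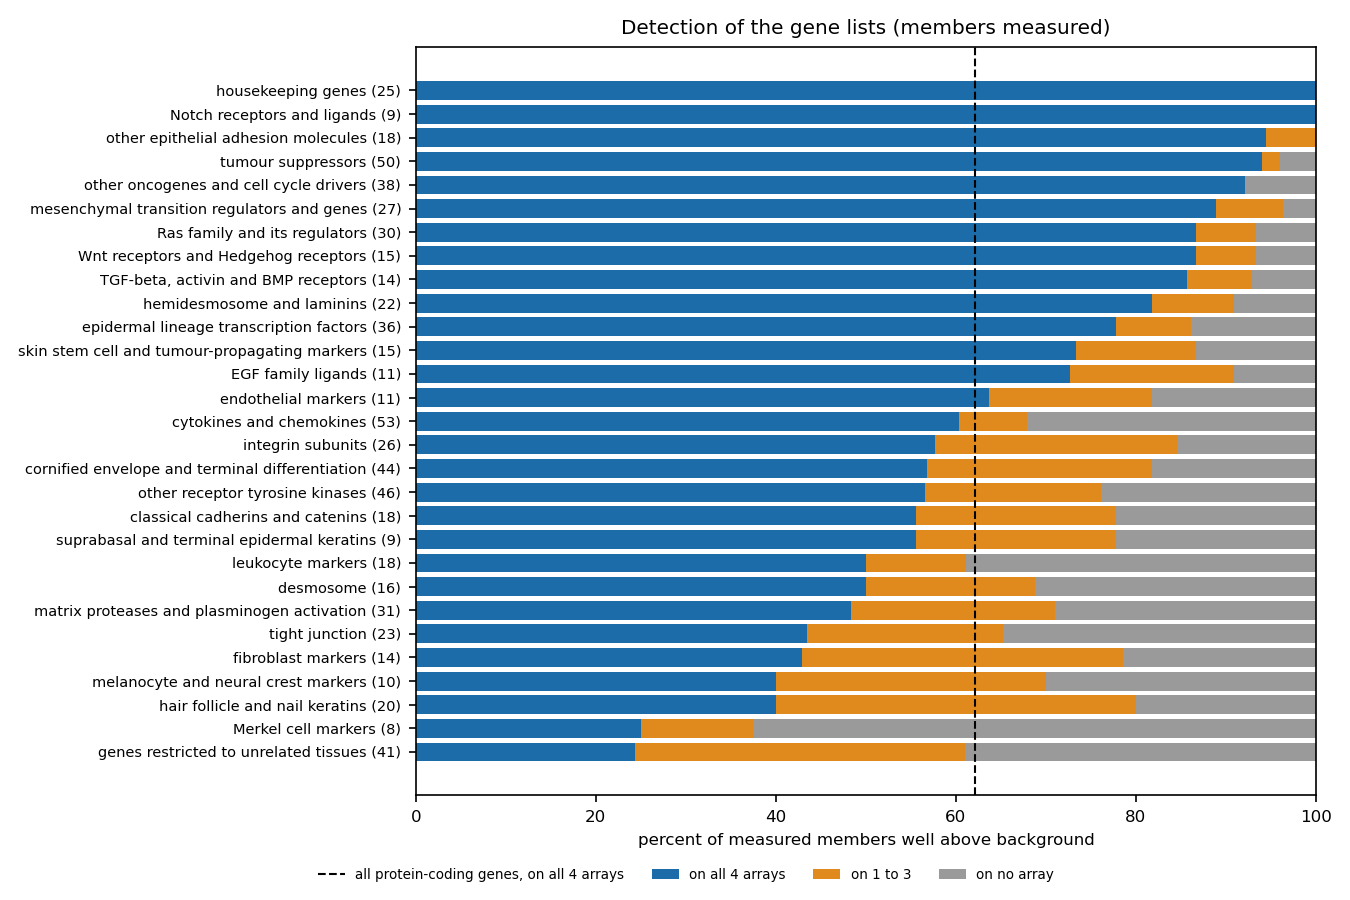
Share of the measured members of each gene list with at least 8 members (vertical axis, number measured in brackets) that were well above background on all 4, on 1 to 3 or on none of the untransfected arrays (horizontal axis, percent), with a dashed line at the 62.1% of all protein-coding genes on all 4 arrays. Tumour suppressors (94.0%) and mesenchymal genes (88.9%) lie right of the line, and tight junction genes (43.5%), hair and nail keratins (40.0%) and genes of unrelated tissues (24.4%) left of it.

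Cytokine and chemokine genes were on all 4 arrays about as often as protein-coding genes, but more often on none. Of 53 measured, 32 (60.4%) were on all 4 arrays and 17 (32.1%) on none, beside 62.1% and 23.0% of all protein-coding genes. Cxcl11, a ligand of the receptor Cxcr3, read 8.23, 8.54, 8.40 and 8.37 (8.38 ± 0.13), whereas Cxcl10, a ligand of the same receptor, was on no array at -6.63 ± 0.49. Cx3cl1 (5.79 ± 0.12), Cxcl5 (5.51 ± 0.03), a neutrophil attractant, Ccl2 (5.42 ± 0.07), a monocyte attractant, and Pdgfa (5.23 ± 0.08) followed. The epithelial alarmin Tslp read 3.34 ± 0.24 and Vegfa 3.25 ± 0.18. Also on no array were Ccl3, Ccl4, Ccl20, Ccl22, Cxcl12, Cxcl15, Ifnb1, Ifng, Il2, Il4, Il10, Il12a, Il12b, Il15, Il17a and Il23a, many of them known as products of leukocytes.

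Of 31 matrix proteases, plasminogen activators and their inhibitors, 15 (48.4%) were on all 4 arrays and 9 (29.0%) on none. The shares of all protein-coding genes were 62.1% and 23.0%. The inhibitors Timp2 (6.98 ± 0.03) and Timp1 (6.04 ± 0.17) led, followed by the urokinase receptor Plaur (4.04 ± 0.15) and the stromelysin Mmp3 (3.56 ± 0.15). Mmp7, Mmp9, Mmp12, Mmp16, Mmp19, Mmp20, Mmp23, Mmp25 and Timp4 were on none.

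Markers of other cells that a tumour-derived culture could hold were detected less often than protein-coding genes in all but 1 list. The share on all 4 arrays was 62.1% for all protein-coding genes and 24.4% for genes of unrelated tissues, and no list lay below the latter. The counts on all 4 arrays were 6 of 14 for fibroblasts (42.9%), 9 of 18 for leukocytes (50%) and 7 of 11 for endothelium (63.6%). They were 4 of 10 for melanocytes and neural crest (40%) and 2 of 8 for Merkel cells (25%). Many defining markers were on no array. Ptprc, the pan-leukocyte gene CD45, read -5.97 ± 0.81, and Cd8a, Ms4a1, Adgre1, Lyz2 and Mpo were on no array either. The fibroblast genes Fap (-6.99 ± 0.45), Postn (-6.90 ± 0.46) and Dpt (-6.65 ± 0.87) were on none, as were the endothelial genes Tek and Cldn5, the melanocyte genes Sox10, Dct and Tyrp1 (5 of 10 on none without NT1), and Atoh1, Sst, Chga, Chgb and Piezo2 of Merkel cells. Other defining markers were dim but detected on all 4 arrays: Pecam1 (-3.43 ± 0.42) and Cdh5 (-2.90 ± 0.32) of endothelium and Mlana (-2.51 ± 0.23) and Tyr (-2.71 ± 0.42) of melanocytes. Other members were brighter. Of the leukocyte list, Itgam read 3.75 ± 0.21, Ly6g 2.57 ± 0.05, Cd4 2.00 ± 0.14, Cd14 1.72 ± 0.15, Cd68 1.08 ± 0.40, Nkg7 0.98 ± 0.15, Cd3e -0.55 ± 0.40 and Csf1r -0.57 ± 0.39, and Cd79a was dim at -3.63 ± 0.11, all on all 4 arrays. Of the fibroblast list, Twist2 (3.87 ± 0.08), Col5a1 (2.70 ± 0.30), Pdgfra (-0.73 ± 0.23) and Col6a1 (-0.76 ± 0.18) were on all 4 arrays, beside the collagen I genes given above. Egfl7 (3.75 ± 0.09) and Kdr (3.68 ± 0.29) led the endothelial list. The part that other cells might have in them was not tested beyond these values.

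The Hox genes record the position along the body axis that a cell came from. Of 39 measured, 19 (48.7%) were on all 4 arrays and 15 (38.5%) on none, beside 62.1% and 23.0% of all protein-coding genes. Of the 19, 17 belong to paralog groups 1 to 8, of which 23 were measured. In the groups 9 to 13, 2 of 16 were on all 4 arrays, Hoxa9 (-1.99 ± 0.15) and Hoxc10 (-2.85 ± 1.03). The Hoxa cluster had 8 of 11 genes on all 4 arrays, the Hoxb cluster 7 of 10 and the Hoxc cluster 4 of 9, whereas all 9 genes of the Hoxd cluster were on no array. Hoxa7 read 6.25, 6.54, 5.95 and 6.13 (6.22 ± 0.25), the brightest of the family, and Hoxb7 (3.07 ± 0.08), Hoxb4 (2.43 ± 0.14), Hoxc4 (1.92 ± 0.07) and Hoxc6 (1.49 ± 0.07) were steady. Within the Hoxb cluster all genes from Hoxb2 to Hoxb8 were detected on all 4 arrays, and Hoxb1 and Hoxb13 on none. This family was looked at after other values had been seen.

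Other families set the range. Cytosolic ribosomal protein genes were on all 4 arrays in 82 of 85 cases (median level 8.64), mitochondrial complex I subunits in 46 of 46 and proteasome subunits in 38 of 40. Olfactory receptor genes were on all 4 arrays in 43 of 1074 cases (4.0%), vomeronasal receptors in 11 of 257 and beta-defensins in 3 of 42. The 20 brightest genes were mainly ribosomal (among them Rps10, Fau, Rpl29, Rpl35, Rpl11, Rpl12, Rpl41, Rpl10 and Rpl37a), histone H2A genes (H2ac12 at 9.64 ± 0.21, H2ac10 and H2aj) and genes of abundant cytoplasmic proteins (S100a6 at 9.62 ± 0.23, Tuba1b, Tpt1 and Actb at 9.28 ± 0.17). The H2A genes are near-identical copies whose probes cannot be assumed to tell them apart. The other 3 places fell to Glrx2, Kctd14 and Zfp628, whose remaining probes read 4.11 and -6.29, -6.30 and -6.36, and 1.17, so their rank rests on 1 probe each.

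Among 6760 protein-coding genes with several probes, the median range between probes of a gene was 2.26 log2, and 1563 genes (23.1%) had some probes on all 4 arrays and others not. A level above is therefore that of the brightest probe. Across the 12537 genes on all 4 arrays, the median SD was 0.145, falling from 0.314 for levels under -2 to 0.109 for levels between 4 and 6, and array pairs correlated at r = 0.9908 to 0.9946 across genes, which are not independent replicates. Means of the slides differed by -0.02 at the median (slide 1 minus slide 2), and by more than 1 log2 for 206 genes.

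Of the 10 genes on all 4 arrays with the largest spread, 4 had 1 array far from 3 that lay close together. Capn5 read 10.34 on NT2 and -1.33, -1.05 and -1.14 on the others, Cyp51 9.24 on NT2 and 3.35, 3.34 and 2.92 on the others, Hmox1 -0.91 on NT4 and 3.15, 3.16 and 3.18 on the others, and Mtch1 3.4 on NT3 and 7.09, 7.29 and 7.26 on the others. Syt10 differed on every array, at 0.82, -1.47, 3.15 and -4.13. Lat, Prrt2, Sema3a, Glyat and Rbpjl make up the rest, with SDs from 1.69 to 2.55, and each read highest on NT2.

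Promoter sequence was compared with detection over 13469 protein-coding genes with 1 promoter in the RefSeq table (GRCm38.p6), over the 250 bases before the start. A promoter was called CpG-rich at a GC share of at least 50% and a ratio of observed to expected CG of at least 0.6. Of 5909 genes with a CpG-rich promoter, 84.5% were on all 4 arrays and 8.48% on none, and of the 7560 others 40.7% and 37.4%. None of 35 keratin promoters was CpG-rich, detected or not, although Krt5, Krt14 and Krt18 were among the brightest genes. Among cornified envelope genes, 0 of 19 promoters of genes on all 4 arrays and 0 of 5 of genes on none were CpG-rich. Among epidermal lineage factors, 6 of 7 on all 4 arrays and 3 of 3 on none had a CpG-rich promoter. For comparison, the promoter was CpG-rich for 4992 of all 8072 genes on all 4 arrays, for 16 of 18 Ras pathway genes and for 21 of 28 tumour suppressors. The promoters of 3 genes are shown with each CG in capitals, 5′ to 3′ on the gene's strand: Krt5, bright with 2 CG (chr15:101712906-101713155, minus strand), Hras, bright with 24 (chr7:141194005-141194254, minus strand), and Cdkn2b, on no array with 12 (chr4:89311033-89311282, minus strand).
Krt5: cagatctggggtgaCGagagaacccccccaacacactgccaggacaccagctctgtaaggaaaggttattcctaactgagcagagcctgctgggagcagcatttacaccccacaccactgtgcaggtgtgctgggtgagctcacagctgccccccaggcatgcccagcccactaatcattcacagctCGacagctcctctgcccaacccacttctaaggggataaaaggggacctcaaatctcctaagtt
Hras: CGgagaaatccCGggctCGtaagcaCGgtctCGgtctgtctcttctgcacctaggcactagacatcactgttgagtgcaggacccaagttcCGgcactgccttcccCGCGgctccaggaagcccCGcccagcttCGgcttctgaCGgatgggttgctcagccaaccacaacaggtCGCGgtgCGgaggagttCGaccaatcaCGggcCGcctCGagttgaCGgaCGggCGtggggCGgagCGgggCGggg
Cdkn2b: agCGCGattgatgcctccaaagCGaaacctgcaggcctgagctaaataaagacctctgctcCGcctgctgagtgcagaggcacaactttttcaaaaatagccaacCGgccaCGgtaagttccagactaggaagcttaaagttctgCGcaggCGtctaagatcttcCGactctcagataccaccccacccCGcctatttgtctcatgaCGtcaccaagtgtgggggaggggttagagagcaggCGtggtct
The Krt5 promoter had an observed to expected ratio of 0.105, that of Hras 0.894 and that of Cdkn2b 0.67, so Cdkn2b was a CpG-rich promoter of a gene that was not detected. The letters describe these windows and say nothing of their methylation or of factors bound there, which were not measured.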

How the data were processed

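Total RNA of 14 samples was hybridised to 1-colour Agilent 60-mer arrays. Per the file headers, the scans passed through Agilent Feature Extraction (version 10.7.3.1), which gave the background-corrected intensity of each spot and a 0 or 1 mark for spots well above background, with probe positions on mm9. Each array's intensities are on its own scale. A deposited table of log2 values held the authors' processed values; its columns followed the log2 mean signal of each array (r = 0.999 to 1.000) with a common median of 6.51, and limma is named in the submitters' processing notes. Its centring and filter are not given in the sources used here.

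From the intensities, control spots and outlier-flagged spots were left out, log2 values were averaged per probe (55681 probes) and each array's 75th percentile was subtracted. A gene took the probe with the highest mean over NT1 to NT4. Of the probes, 27737 were named through an accession in the RefSeq table, 3349 by symbol and 313 by a synonym. No difference was tested, since 1 group was studied. The scaling was checked on simulated arrays. Normexp (limma 3.58.1, offset 50, R 4.3.3), quantile scaling, a weaker mark, other probe rules, each slide and each array left out were alternatives. The number of arrays limits the precision.

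Members and lists (36 lists) were chosen with earlier results of these data known. Named genes were the identity markers and their probes, in each list up to 5 of the highest, those on some arrays and those on none, the 20 brightest and the 10 most variable genes. In long lists, members on some arrays are given by count. Some items are not reported here. Other genes named, the families and the promoter classes were chosen after values were seen.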

Additional observations from a re-analysis of the deposited data

Results flagged for a closer look

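Of 263 sets of 4 array values examined (each gene whose level is described and 4 array measures), 19 (7.22%) had 1 array whose gap to the nearest other exceeded Dixon's 95% critical share of the range. The sets include the 10 most variable genes, which were chosen for their spread, so that share is not set against chance. Without those genes it was 15 of 253 (5.93%), where chance marks about 1 in 20.

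NT1 stood apart for Krt6a (3.0, others 4.57 to 4.88), Cldn4 (-2.86, others -5.73 to -5.26), Epcam (-2.19, others -3.67 to -3.47), Erbb3 (-3.73, others -5.26 to -5.10), Insr (-0.51, others -3.68 to -3.23), Dll4 (-2.75, others -4.35 to -4.13), Notch2 (2.02, others 1.72 to 1.77), Cdh15 (-2.69, others -3.07 to -3.02) and Myc (3.43, others 3.32 to 3.33). It was the higher array for all of these but Krt6a, and it also had the highest negative-control median, -6.45.

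NT3 stood apart for Ctnnd1 (3.57, others 5.22 to 5.31), Evpl (3.11, others 2.72 to 2.78) and Mtch1 (3.4, others 7.09 to 7.29). NT4 stood apart for Krt85 (4.47, others 4.68 to 4.71), Pkp3 (4.68, others 4.35 to 4.38), Met (1.55, others 0.76 to 0.88), Notch1 (-1.75, others -1.21 to -1.19) and Hmox1 (-0.91, others 3.15 to 3.18). NT2 stood apart for Capn5 (10.34, others -1.33 to -1.05) and Cyp51 (9.24, others 2.92 to 3.35).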

How the results depend on the processing

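No paired analysis was possible because the result comes from no test and a single group was studied. The counts of genes and list members on all 4 arrays stayed within 1.5 times their value when any 1 array was left out, on either slide alone, with all spots kept and with any probe of a gene. Under the weaker mark (signal positive and significant), the genes on no array numbered 1507 in place of 4634, and the members on all 4 arrays 25 of the genes of unrelated tissues, 14 hair and nail keratins, 7 melanocyte genes, 5 simple keratins and 8 suprabasal keratins. List counts on no array, being small, moved past 1.5 times in 8 of 36 lists on slide 2 alone and in 23 under the weaker mark. Levels moved by more than their SD for 413 of 688 genes with normexp, for 398 in the deposited table and for 162 with the mean over a gene's probes, and the order of genes correlated with the one given at a Spearman coefficient of at least 0.975 throughout. No spot was saturated, and levels near -7 have no order, since they lie at the negative controls.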
